A study of Mus musculus with 10 samples.

Results

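Wide accessible regions that lie away from the start of a protein-coding gene were described over iNKT1 and iNKT2 cells of the mouse thymus. A region was taken as a member when its stop minus its start was 1000 bp or more and when no protein-coding gene started within 1000 bp of its edges, on the mm10 build with GENCODE gene records. The rule was met by 1285 of 94823 regions (1.36%), and each was named after the protein-coding gene of nearest start, which is a label and not a target. The assay was ATAC-seq, a measure of accessibility that counts where a transposase could insert adapters into the DNA. The 4 groups were iNKT1 of BALB/c and of SKG mice, with 2 libraries each, and iNKT2 of the same strains, with 3 libraries each. All cells were sorted from thymus, with CD27+ CD122+ cells taken as iNKT1 and CD27+ CD122- cells as iNKT2. SKG mice carry a hypomorphic allele of Zap70 on the BALB/c background, so the proximal T cell receptor kinase is weakened in every cell that expresses it, and BALB/c mice carry the normal gene. The labels did not say that libraries of a group came from separate animals, so p-values measure only the spread between libraries.

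Invariant NKT cells are T cells with a nearly fixed receptor that recognises lipids on CD1d. Their iNKT1 subset is driven by T-bet and makes interferon gamma, whereas iNKT2 cells hold high PLZF and make interleukin 4. Open chromatin away from gene starts marks enhancers and other regulatory elements, and long stretches of it often mark clusters of such elements or the starts of further transcripts.

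The regions with the largest called difference in each comparison and direction are shown by their central 300 bases, plus strand, read from the GRCm38 sequence. Capitals mark exact matches to one of 12 short motif strings, searched on both strands. The matches found were AGATAAG for GATA factors, CAGCTG or CACCTG for E-box factors, and ACAGGAAG, here as its reverse complement CTTCCTGT, for ETS factors. Over all 94823 central windows, 4.19% held the GATA string, 36% an E-box string and 9.64% the ETS string. The first pair were higher in iNKT2 cells, the second pair higher in iNKT1 cells, and the remaining 3 differed between SKG and BALB/c.
Rhobtb1 intron, chr10:69168700-69168999: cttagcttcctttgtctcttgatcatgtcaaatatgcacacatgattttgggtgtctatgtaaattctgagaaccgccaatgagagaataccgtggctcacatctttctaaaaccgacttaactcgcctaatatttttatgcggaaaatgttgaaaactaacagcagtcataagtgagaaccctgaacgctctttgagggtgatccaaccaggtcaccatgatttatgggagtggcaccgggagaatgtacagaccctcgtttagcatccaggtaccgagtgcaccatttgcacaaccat
near Akirin2, chr4:34436071-34436370: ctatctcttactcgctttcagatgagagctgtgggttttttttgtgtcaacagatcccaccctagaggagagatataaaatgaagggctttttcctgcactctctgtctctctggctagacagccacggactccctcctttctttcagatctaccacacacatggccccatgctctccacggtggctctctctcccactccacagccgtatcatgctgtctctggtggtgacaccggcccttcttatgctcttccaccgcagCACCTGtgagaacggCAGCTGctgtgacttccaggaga
near Dennd4a, chr9:64793043-64793342: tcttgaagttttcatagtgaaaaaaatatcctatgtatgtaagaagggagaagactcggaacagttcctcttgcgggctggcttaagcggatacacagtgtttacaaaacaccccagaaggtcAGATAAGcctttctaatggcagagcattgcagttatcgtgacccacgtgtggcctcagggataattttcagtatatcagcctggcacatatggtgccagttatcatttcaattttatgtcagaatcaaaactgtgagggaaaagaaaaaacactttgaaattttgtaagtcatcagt
P2rx3 intron near Ssrp1, chr2:85014080-85014379: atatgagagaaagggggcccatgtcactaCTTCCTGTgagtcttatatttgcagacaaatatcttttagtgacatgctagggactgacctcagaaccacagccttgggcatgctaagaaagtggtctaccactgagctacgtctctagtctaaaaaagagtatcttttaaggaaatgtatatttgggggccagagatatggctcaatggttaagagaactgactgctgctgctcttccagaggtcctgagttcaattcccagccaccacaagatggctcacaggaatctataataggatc
Emb intron near Gm17509, chr13:117242388-117242687: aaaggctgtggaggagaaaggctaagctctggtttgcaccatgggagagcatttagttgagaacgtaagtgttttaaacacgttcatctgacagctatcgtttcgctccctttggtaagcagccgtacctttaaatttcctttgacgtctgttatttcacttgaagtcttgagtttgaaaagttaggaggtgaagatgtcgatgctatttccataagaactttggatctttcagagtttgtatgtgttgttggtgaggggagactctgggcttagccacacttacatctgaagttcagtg
near Ly6e, chr15:74931147-74931446: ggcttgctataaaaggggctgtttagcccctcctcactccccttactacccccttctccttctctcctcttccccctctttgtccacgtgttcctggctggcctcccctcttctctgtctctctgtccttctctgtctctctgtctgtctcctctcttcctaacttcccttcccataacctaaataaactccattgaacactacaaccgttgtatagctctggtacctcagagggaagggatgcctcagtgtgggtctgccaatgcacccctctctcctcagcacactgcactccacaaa
near Jag1, chr2:137236630-137236929: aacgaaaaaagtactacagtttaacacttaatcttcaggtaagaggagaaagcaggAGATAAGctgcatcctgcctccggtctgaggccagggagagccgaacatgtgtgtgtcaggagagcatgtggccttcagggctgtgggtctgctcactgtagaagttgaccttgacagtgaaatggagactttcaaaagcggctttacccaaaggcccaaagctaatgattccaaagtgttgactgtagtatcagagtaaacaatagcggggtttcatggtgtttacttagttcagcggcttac
The Rhobtb1, Gm17509 and Ly6e windows held none of the strings. Motif letters are a description of the window and are not evidence of binding.

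The label "non-promoter" held only in part. Of the 1285 wide regions, 326 (25.4%) lay within 1000 bp of the start of another protein-coding transcript of some gene, and 536 (41.7%) lay within 1000 bp of any annotated transcript start, which left 749 (58.3%) clear of every annotated start. The 326 regions resembled promoters in base composition, with a median GC content of 60.6% and 64.7 CpG per kb, against 48.9% and 16.0 CpG per kb in the other 959. Wide regions at gene starts, which the rule left out, had medians of 61.8% and 75.8 CpG per kb. By annotation, 451 of the 1285 were intergenic (35.1%), 411 lay in introns (32.0%), 266 overlapped a coding exon (20.7%) and 157 an untranslated exon (12.2%). Among the 959 regions free of coding transcript starts, 451 (47.0%) were intergenic and 391 (40.8%) intronic.

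The median wide region spanned 1168 bp and the widest 7709 bp, against a median of 343 bp over all regions. By the study's methods, peak summits were expanded to 1 uniform width and merged, whereas the table held widths from 300 bp upwards, and how these widths arose could not be settled. Levels are given as TMM-scaled CPM of insertions per kb of region (CPM per kb), which allows regions of unequal width to be compared. The wide regions had a median level of 34.6 CPM per kb, against 6.55 in the 75575 narrower regions away from gene starts and 53.7 in the 2747 wide regions at gene starts. They also had more accessible neighbours, with a median of 15 other regions within 50 kb on each side against 11 for narrower regions. The nearest gene start was a median of 22832 bp away, and 147 wide regions (11.4%) were over 100 kb from it, against 15.5% of narrower regions. At the width limit, the 10 regions just inside (1000 to 1001 bp) had levels from 13.2 to 37.5 CPM per kb with a median of 18.8, and the 10 just outside (998 to 999 bp) had levels from 15.7 to 74.9 with a median of 35.7.

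**Figure D1:**
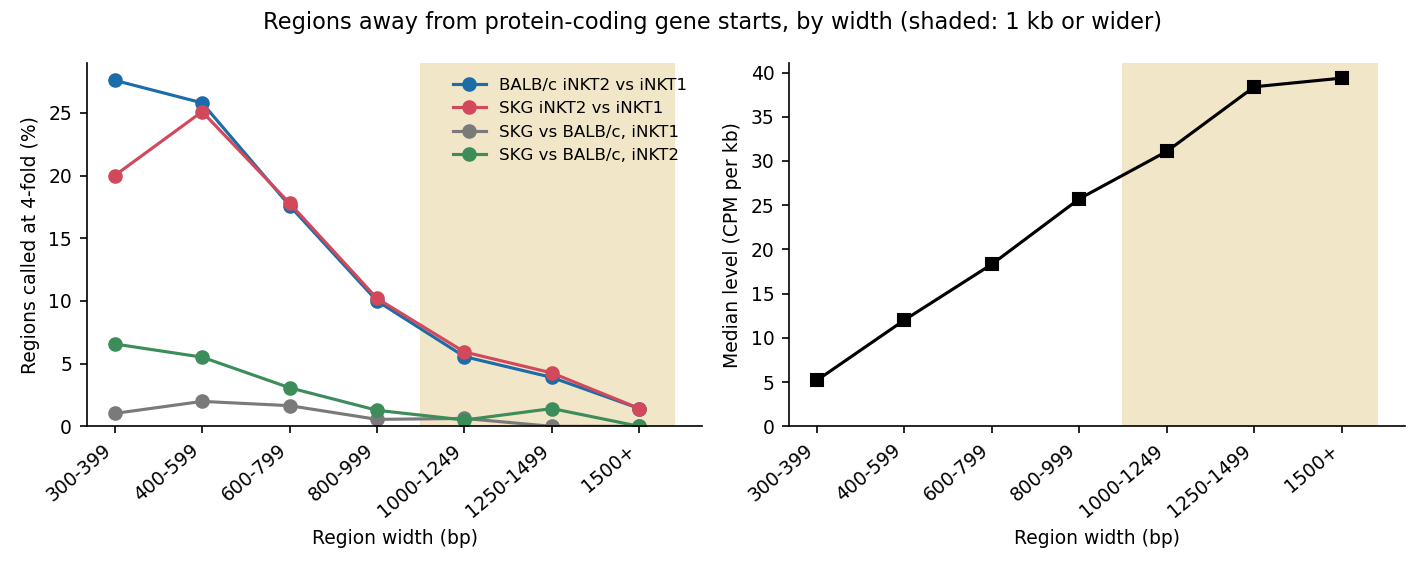
Regions away from protein-coding gene starts, grouped by width in bp, with the share called at an adjusted p under 0.01 and 4-fold in the 4 pairwise comparisons (%, left panel, 1 line each) and the median level in CPM per kb (right panel). Shading marks the wide regions. The share called between BALB/c iNKT2 and iNKT1 was 27.6% at 300 to under 400 bp and 1.42% at 1500 bp or more, while the median level was 5.21 and 39.4 CPM per kb.

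The 5 widest regions were a 7709 bp stretch that overlaps an untranslated exon of Btg1, a 4688 bp stretch in Sfi1, a 3770 bp stretch over the lncRNA Lncpint nearest to the Mkln1 start, a 3651 bp stretch in Ppp2r3d and a 3553 bp stretch over a Zswim6 transcript nearest to the Smim15 start. Btg1, an antiproliferative gene that is abundant in resting lymphocytes, had levels of 24.4 and 24.8 CPM per kb in BALB/c iNKT1, 16.5 and 17.5 in SKG iNKT1, 16.2, 25.6 and 23.7 in BALB/c iNKT2, and 26.7, 28.6 and 29.3 in SKG iNKT2. Its level was higher in SKG iNKT2 than in SKG iNKT1 in every library, by 0.73 ± 0.16 on the log2 scale (SE, adjusted p = 0.0016), and the BALB/c subsets overlapped. The regions of highest level were those of Kat6b (177 CPM per kb), the Ifrd1 region near Lsmem1 (173), the Raet1e region near Raet1d (161), the region near Zfp958 (149) and a Fhit region (143). Each of these 5 overlapped an annotated transcript start of some kind, and none was called in any comparison. Whether reads of the Sfi1 stretches also match elsewhere in the genome was not tested.

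A gene had usually 1 wide region: 864 of 1037 genes had 1, 117 had 2 and 56 had 3 or more. Sfi1 had the most, with 8 regions over 73.1 kb at levels of 16.0 to 47.7 CPM per kb. Behind it came 4 genes with 5 regions each, among them Cd28, the main costimulatory receptor of T cells, Ets1, a transcription factor that T cells need, Prkch, a protein kinase C of T cells, and Mgat5, an enzyme that branches N-glycans. In BALB/c iNKT2 against iNKT1, 2 of 8 Sfi1 regions passed the adjusted p, as lower. All 5 Prkch regions passed the adjusted p as lower, with log2 differences from -1.23 to -0.80, as did 4 of 5 for Cd28 (-1.03 to -0.42 over the 5), 4 of 5 for Ets1 (-1.30 to -0.19) and 3 of 5 for Mgat5 (-1.18 to 0.49). No region of these 5 genes passed in SKG against BALB/c iNKT1, and in iNKT2 cells only 2 Prkch regions and 1 Mgat5 region passed, as higher.

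Over the 10 libraries, total insertions in regions ranged from 14988590 to 36342635, and the median wide region held 624 to 1656 insertions against 40 to 120 for the median of all regions (insertions in the table only). The wide region with fewest held 2 to 6 insertions in the iNKT1 libraries and 8 to 49 in the iNKT2 libraries, so the levels of nearly closed regions rest on few insertions. The level at the 5th percentile of all regions, a measure of the floor, was 0.214 to 0.364 CPM per kb in iNKT1 libraries, 1.41 to 1.92 in BALB/c iNKT2 and 0.612 to 1.01 in SKG iNKT2, with replicate 1 highest in both iNKT2 groups. The part of this floor in the differences below was not tested. Marker genes were checked by the summed CPM of all regions with that gene as the nearest start, distant regions included. For 4 iNKT1 markers (Tbx21, Ifng, Cxcr3, Il2rb) the sum was 1147 to 1204 CPM in BALB/c iNKT1, 1155 to 1182 in SKG iNKT1, 357 to 402 in BALB/c iNKT2 and 375 to 449 in SKG iNKT2. These markers followed the labels. The iNKT2 list was 617 to 671, 620 to 674, 584 to 704 and 674 to 927 CPM in the same order and overlapped between the BALB/c subsets. Zbtb16, with 90 regions, made up most of it and had group means of 498, 473, 399 and 454 CPM. The other 3 markers had higher group means in iNKT2 of both genotypes, with 1.82, 2.12, 14.9 and 20.7 for Il17rb, 75.8, 99.2, 115 and 158 for Il6ra, and 67.8, 72.9, 97.8 and 136 for Ccr7. Thymic iNKT17 cells mostly lack CD27, so the CD27+ gates should leave out most of them, but regions nearest to Il17a had group means of 3.85, 6.45, 68.0 and 40.4 CPM those of Il17f 2.28, 2.41, 8.81 and 5.55, those of Il23r 13.1, 11.6, 49.6 and 38.9, and those of Ccr6 31.5, 34.4, 17.5 and 28.2. For 6 markers of double-positive thymocytes the sums were 31.2 to 33.2, 42.9 to 51.7, 85.7 to 99.8 and 65.2 to 73.1 CPM, all but a little of it away from gene starts. Rag1, Rag2, Dntt, Ptcra and Cd8b1 had no region within 1000 bp of their starts, and Cd8a had group means of 0.252 to 1.57 CPM there. For 7 myeloid markers the sums, distant regions included, were 86.3 to 101, 99.0 to 99.2, 45.7 to 48.0 and 31.5 to 40.7 CPM, and Csf1r, Itgam, Lyz2 and Itgax had no region at their starts. Sums for 7 B cell markers (49.3 to 62.8 CPM) and 5 thymic epithelium markers (41.7 to 56.1) varied little over the 10 libraries, and those for 6 pan T cell markers were 1049 to 1336. The part of other cells in the results was not tested.

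The share of insertions that fell in the wide regions was 6.77% and 6.79% in BALB/c iNKT1, 6.57% and 6.68% in SKG iNKT1, 6.15%, 6.22% and 6.12% in BALB/c iNKT2, and 6.42%, 6.53% and 6.61% in SKG iNKT2. BALB/c iNKT2 libraries were lowest, without overlap with any other group, and the means were 6.78% ± 0.0140 (SD, n = 2), 6.62% ± 0.0769 (n = 2), 6.16% ± 0.0505 (n = 3) and 6.52% ± 0.0974 (n = 3) in that order. By group mean level, 400 wide regions were highest in BALB/c iNKT1 (31.1%), 456 in SKG iNKT1 (35.5%), 152 in BALB/c iNKT2 (11.8%) and 277 in SKG iNKT2 (21.6%). These counts rest on TMM-scaled levels, and the lean toward iNKT1 depended on scaling, as given below. The same shares over all regions were not counted.

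The subset comparison within BALB/c asked which regions differ between normal iNKT1 and iNKT2 cells. A region was called at an adjusted p under 0.01 in the edgeR quasi-likelihood test and a difference of 4-fold or more. Among wide regions, 28 were called higher in iNKT2 (2.18%) and 30 lower (2.33%), where over all regions 15.5% were called higher and 6.36% lower. With the adjusted p alone, 139 wide regions were higher (10.8%) and 602 lower (46.8%), against 25.7% and 23.4% of all regions. The share called at 4-fold was thus below that of all regions in both directions, and the share past the adjusted p alone was above it only for lower levels in iNKT2. In sorted cells, a region open in fewer cells and a region less open in each cell cannot be told apart. The difference was under 2-fold in 976 wide regions (76.0%), against 56.1% of all regions. Without the 326 regions near other coding transcript starts, 27 were called higher and 28 lower.

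In SKG cells the same comparison called 27 wide regions higher in iNKT2 (2.10%) and 35 lower (2.72%), against 10.2% and 6.96% of all regions. The adjusted p alone gave 181 higher (14.1%) and 354 lower (27.5%), against 18.4% and 17.6%, and 1024 regions (79.7%) differed by under 2-fold, against 58.6% of all regions. Leaving out 1 iNKT1 library of the genotype compared, which leaves 1 library in that group, lowered the counts past the adjusted p in both genotypes. The counts over all regions fell too, in both directions. Of the 28 called higher in BALB/c iNKT2, 21 (75%) were called higher in SKG, and of the 30 called lower, 24 (80.0%) were. Read from SKG, 21 of 27 (77.8%) and 24 of 35 (68.6%) were also called in BALB/c, and no region was called in opposite directions in the subset comparisons. The shares of calls made in both genotypes were not counted over all regions. Over the 1285 regions, which are not independent, the subset differences of the genotypes had Pearson's r = 0.887 and a Spearman rank correlation of 0.831, against r = 0.821 over all regions. No library was shared between them. Neither subset comparison called 1210 wide regions (94.2%), and this joint share was not counted over all regions.

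**Figure D2:**
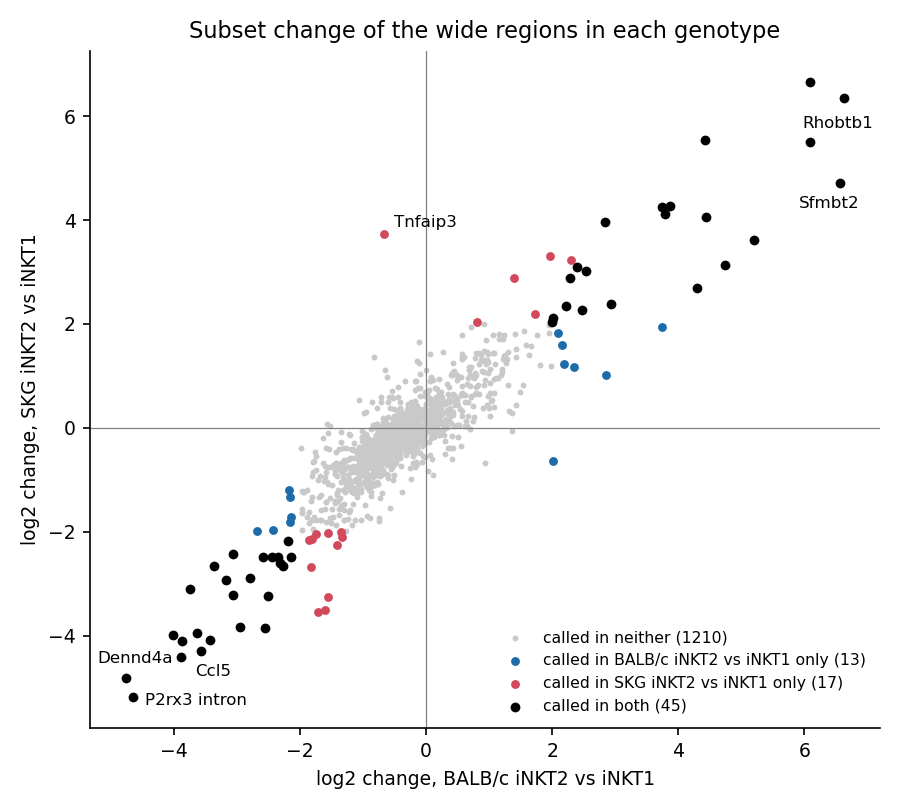
Each point is 1 of 1285 wide regions, with the log2 difference of iNKT2 from iNKT1 in BALB/c on the horizontal axis and in SKG on the vertical axis. The 45 regions called in both lie near the diagonal at each end, 13 were called in BALB/c only, 17 in SKG only, and the Tnfaip3 exon region stands away from the diagonal.

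The region with the largest rise in iNKT2 cells lay in an intron of Rhobtb1, which encodes an atypical GTPase, at chr10:69168242-69169458 and 16808 bp from the gene's start. Its level was 0.196 and 0.507 CPM per kb in BALB/c iNKT1, 0.633 and 0.211 in SKG iNKT1, 24.4, 38.0 and 35.6 in BALB/c iNKT2, and 28.7, 34.3 and 41.1 in SKG iNKT2. It was nearly closed in every iNKT1 library and open in every iNKT2 library, with a log2 difference of 6.63 ± 0.37 in BALB/c (adjusted p = 5.5e-09) and 6.34 ± 0.38 in SKG (adjusted p = 1.4e-08). In iNKT2 cells it differed by 0.08 ± 0.20 between genotypes (adjusted p = 0.8).

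A second region of this kind, chr2:10593848-10594860, lay over an untranslated exon of Sfmbt2, a Polycomb group gene, 223338 bp from the start. Its level was 0.177 and 0.174 CPM per kb in BALB/c iNKT1, 0.190 and 0.507 in SKG iNKT1, 13.9, 18.5 and 19.1 in BALB/c iNKT2, and 6.45, 12.4 and 9.05 in SKG iNKT2. It rose by 6.57 ± 0.42 on the log2 scale in BALB/c (adjusted p = 1.3e-08) and by 4.71 ± 0.42 in SKG (adjusted p = 3.1e-07), and the SKG iNKT2 libraries were all below the BALB/c iNKT2 libraries (-0.89 ± 0.22, adjusted p = 0.0088). The difference between the subset rises was itself not past the test (-1.86 ± 0.76, adjusted p = 0.19).

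Intergenic regions at chr4:53316169-53317481, 122932 bp from the start of Slc44a1, a choline transporter gene, and at chr4:34435713-34436728, 114209 bp from the start of Akirin2, a gene for a nuclear protein, showed the same form. The Slc44a1 region was at 0.455 to 0.977 CPM per kb in the 4 iNKT1 libraries and at 27.2 to 51.8 in the 6 iNKT2 libraries, and rose by 6.09 ± 0.37 in BALB/c and 5.50 ± 0.37 in SKG. The Akirin2 region was at 0.126 to 0.412 CPM per kb in iNKT1 and at 14.7 to 29.7 in iNKT2, and rose by 6.09 ± 0.39 and 6.67 ± 0.46. In an intron of Plcb4, which encodes a phospholipase C, a region nearest to the start of Lamp5 rose by 4.42 ± 0.28 in BALB/c and 5.55 ± 0.36 in SKG. Its level was 0.252 to 2.98 CPM per kb in iNKT1 and 27.7 to 66.1 in iNKT2. The adjusted p of these 6 comparisons was at most 3.7e-08.

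Regions called lower in iNKT2 were led by chr9:64792552-64793833, which lay between genes at 17507 bp from the Dennd4a start. Dennd4a encodes an activator of Rab GTPases. The region was at 48.1 and 49.1 CPM per kb in BALB/c iNKT1, 43.0 and 41.7 in SKG iNKT1, 3.5, 0.929 and 0.933 in BALB/c iNKT2, and 2.92, 0.609 and 0.421 in SKG iNKT2. Replicate 1 was the highest iNKT2 library in both genotypes, and no iNKT2 library reached an iNKT1 library. The region fell by 4.75 ± 0.50 on the log2 scale in BALB/c (adjusted p = 1.2e-06) and by 4.81 ± 0.52 in SKG (adjusted p = 2.2e-06).

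In an intron of P2rx3, an ATP-gated channel gene, the region chr2:85013605-85014854 had its nearest gene start at Ssrp1, 22380 bp away. The 4 iNKT1 libraries were at 53.0 to 81.7 CPM per kb and the 6 iNKT2 libraries at 1.02 to 4.72, a fall by 4.65 ± 0.26 in BALB/c (adjusted p = 5.6e-09) and by 5.18 ± 0.28 in SKG (adjusted p = 7.8e-09). An intronic region of Hip1, a clathrin adaptor gene, was at 79.3 to 92.6 CPM per kb in iNKT1 and 2.30 to 8.22 in iNKT2. It fell by 4.01 ± 0.33 in BALB/c (adjusted p = 1.1e-07).

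Genes of effector and NK-type lymphocytes were among the others. The region chr11:83536313-83537479 lay 5795 bp from the start of Ccl5, a chemokine gene of effector and cytotoxic lymphocytes, with 29.8 and 26.9 CPM per kb in BALB/c iNKT1, 37.8 and 37.3 in SKG iNKT1, 2.69, 1.54 and 1.48 in BALB/c iNKT2, and 3.03, 0.590 and 1.27 in SKG iNKT2. It fell by 3.89 ± 0.36 in BALB/c (adjusted p = 3.5e-07) and by 4.41 ± 0.37 in SKG (adjusted p = 2.1e-07). A region 6526 bp from the start of Klri2, an NK receptor gene, was at 104 to 128 CPM per kb in iNKT1 and 3.44 to 16.2 in iNKT2, and fell by 3.57 ± 0.33 in BALB/c and by 4.29 ± 0.34 in SKG.

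**Figure D3:**
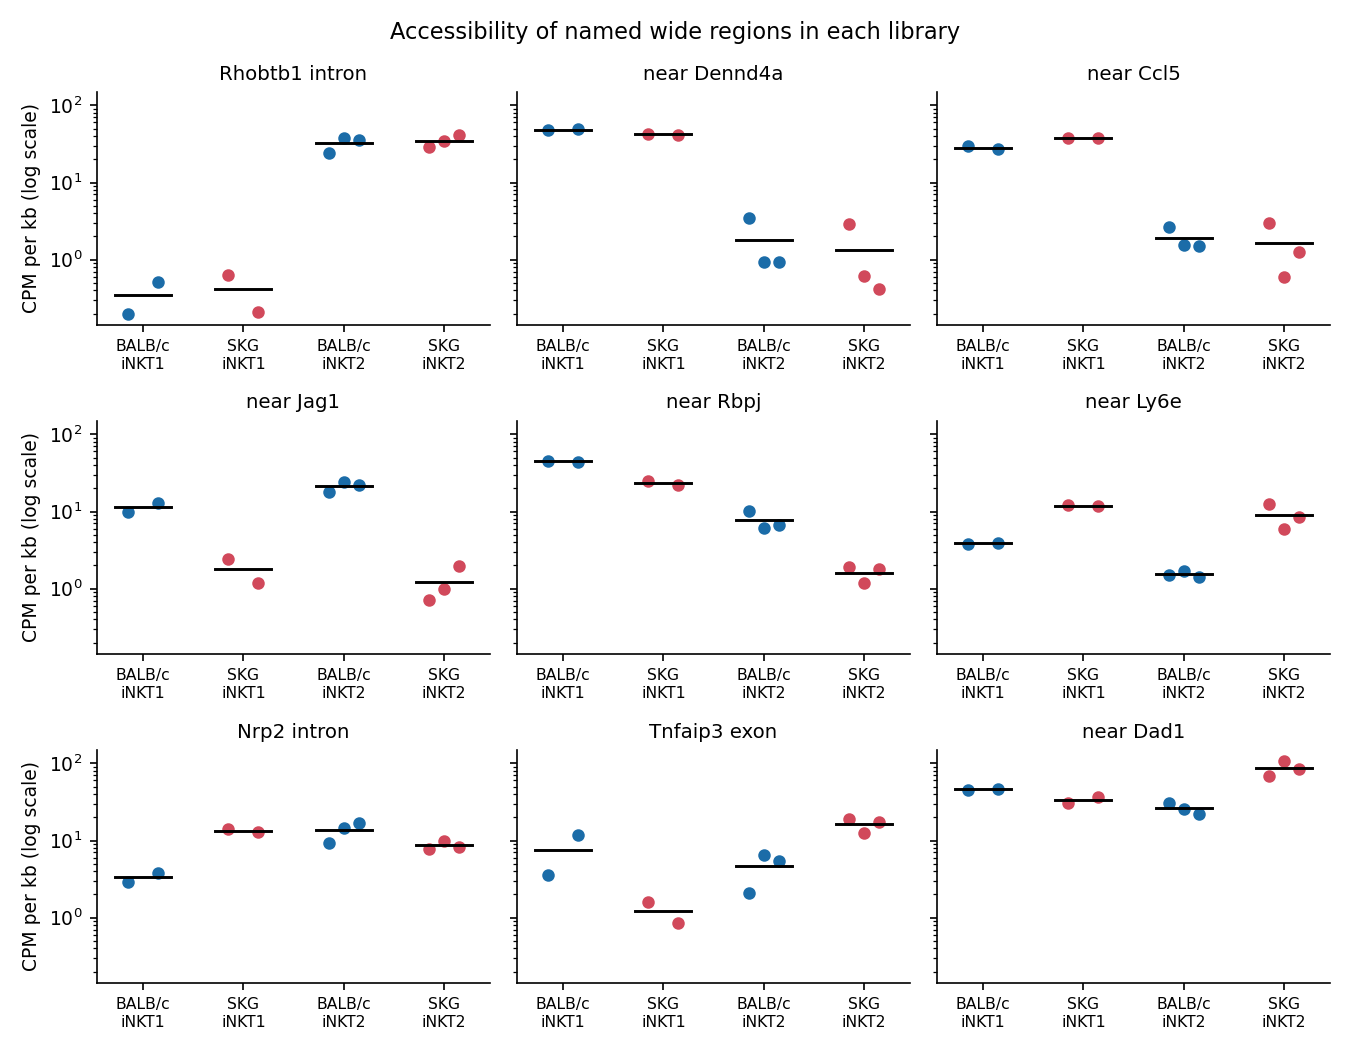
Level of 9 named wide regions in every library, in CPM per kb on a log axis; points are libraries, bars are group means, BALB/c is blue and SKG red. The top row shows regions called between subsets in both genotypes, such as the Rhobtb1 intron at 0.196 to 0.633 in iNKT1 and 24.4 to 41.1 in iNKT2, the middle row regions called between genotypes, and the bottom row regions whose genotype difference differed between subsets.

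At the other end, 3 regions of above-median level changed least over the 4 pairwise comparisons. In the region that overlaps a Wdfy1 exon and is nearest to the Mrpl44 start, the 10 libraries ranged from 34.2 to 48.9 CPM per kb and the largest absolute log2 difference was 0.09. The Sfi1 region at chr11:3104625-3106097 and an Mtm1 region kept absolute log2 differences of at most 0.09 and 0.08. These values came from the choice of least change and carry no test.

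The many small differences toward iNKT1 depended on how libraries were scaled. With TMM factors wide regions had a median log2 difference between subsets of -0.42 (BALB/c) and -0.17 (SKG), against 0.06 and 0.14 over all regions. With library totals alone the medians were -0.13 and 0.01, but the medians over all regions moved to 0.34 and 0.32, so the median of wide regions minus that of all regions was -0.47 and -0.32, against -0.47 and -0.31 with TMM. Under quantile normalization the medians were -0.02 and 0.04 against 0.00 and 0.08, and this gap was -0.02 and -0.04. Under the adjusted p alone in BALB/c, 139 higher and 602 lower with TMM became 224 and 379 with library totals and 327 and 335 with quantile normalization, while 24323 and 22217 over all regions became 29650 and 14019, and 19206 and 21101. In SKG, 181 and 354 became 266 and 243, and 258 and 213, while 17418 and 16668 over all regions became 21124 and 12729, and 10202 and 14021. The 4-fold split moved less in number but also turned. In BALB/c, 28 higher and 30 lower became 35 and 23 with library totals and 36 and 24 with quantile normalization. Over all regions, 14725 and 6029 became 17104 and 4750, and 9042 and 8966. In SKG, 27 and 35 became 33 and 28, and 29 and 27, while 9654 and 6599 over all regions became 11038 and 5684, and 4244 and 7011.

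**Figure D4:**
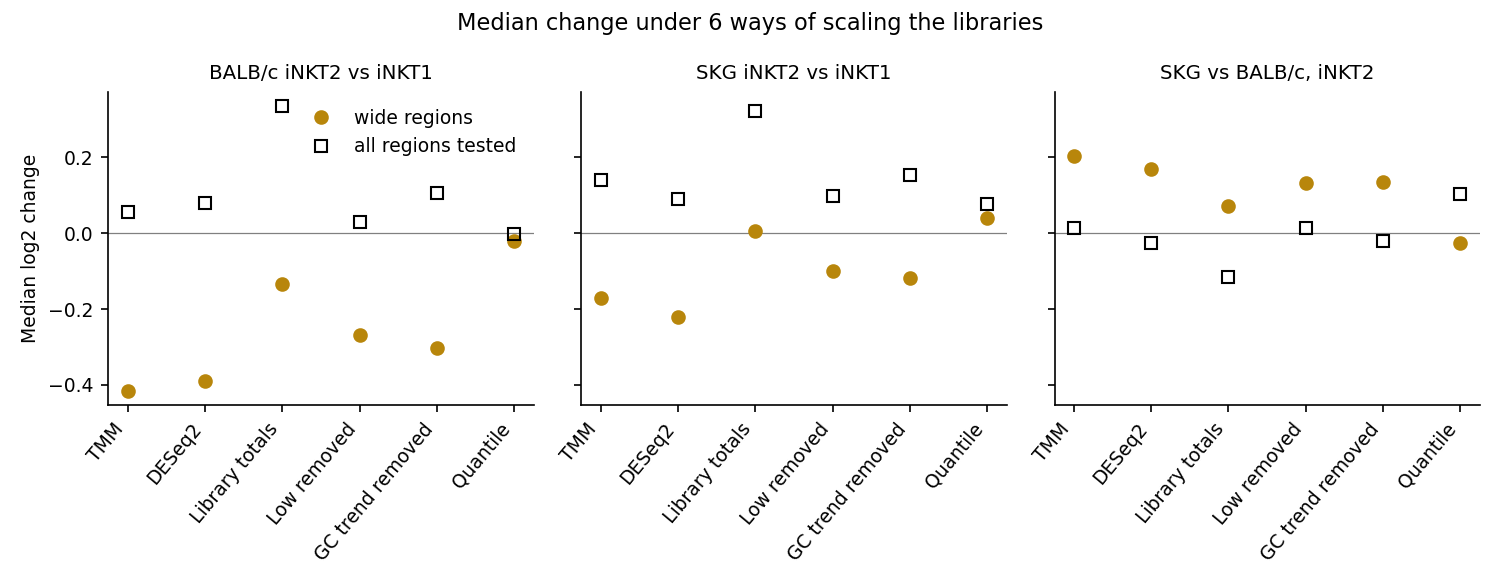
Median log2 difference of the 1285 wide regions (filled) and of all regions tested (open squares) under 6 ways of scaling or filtering (TMM, DESeq2 size factors, library totals, low regions removed, GC trend removed, quantile), for 3 comparisons. With quantile normalization the wide regions lie at -0.02, 0.04 and -0.03, close to all regions in both subset comparisons, while with TMM they lie at -0.42, -0.17 and 0.20.

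Level and width moved together, and at the highest levels the median shifts of wide regions were close to those of all regions. Of the wide regions, 873 (67.9%) were among the 18965 regions of highest level. There, the median differences of wide regions were -0.45 (BALB/c subsets), -0.21 (SKG subsets), 0.02 (iNKT1 genotypes) and 0.23 (iNKT2 genotypes), and those of all regions at these levels were -0.43, -0.22, 0.05 and 0.23. The share called stayed lower for wide regions, with 2.41% against 5.11% for the BALB/c subsets and 2.98% against 6.13% for the SKG subsets. Among regions away from gene starts, the share called in BALB/c subsets fell from 27.6% at 300 to under 400 bp to 10.0% at 800 to under 1000 bp, 5.56% in the 792 narrowest wide regions and 1.42% at 1500 bp or more.

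The genes of 11 lists for iNKT and T cell biology were then followed, and 75 of their 202 genes had a wide region, 115 regions in all (8.95% of wide regions). Counts in this and the following paragraphs use the adjusted p alone with TMM, where the shares over all regions were those given above, and each list is described without a test. Over the named regions and the 5 comparisons, 250 results passed the adjusted p. Of these, 1 changed sign under another scaling, the Mcl1 region below, and 72 did not pass under at least 1 of the other scalings.

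The iNKT1 programme had 12 regions at 7 of 24 genes. In BALB/c iNKT2 against iNKT1, 7 fell, 1 rose and 4 did not pass, with a median of -0.68 that remained below 0 under every scaling tried (highest -0.25, quantile). Beside Ccl5, the region near Klrk1, which encodes the receptor NKG2D, fell by 2.43 ± 0.19 (adjusted p = 6.7e-08), and that near Il18rap, a subunit of the interleukin 18 receptor, fell by 1.96 ± 0.12 (adjusted p = 1.2e-08). The region that rose was near Fasl, the gene of a death ligand, 82894 bp from its start, with 6.91 and 9.13 CPM per kb in BALB/c iNKT1, 9.47 and 8.18 in SKG iNKT1, 30.7, 45.4 and 40.1 in BALB/c iNKT2, and 56.9, 64.8 and 75.2 in SKG iNKT2. Every iNKT2 library was above every iNKT1 library (2.28 ± 0.20, adjusted p = 1.9e-07), whereas a second Fasl region, 53125 bp from the start, fell by 0.79 ± 0.13 (adjusted p = 0.00011). In SKG subsets, 4 of the 12 fell and 1 rose.

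The iNKT2 programme had 8 regions at 5 of 16 genes, of which 3 rose, 3 fell and 2 did not pass in BALB/c, with a median of 0.39 that remained above 0 under every scaling. An intronic region of Slamf6, a receptor needed for iNKT development, rose by 0.98 ± 0.18 (adjusted p = 0.00026). Of 4 regions at Icos, a costimulatory receptor gene, 2 rose (0.92 and 0.78), 1 fell (-0.80) and 1 was at 0.69 with an adjusted p of 0.019. Regions in introns of Il4, the interleukin 4 gene, and Zbtb16, the gene of PLZF, fell, although both genes define iNKT2 cells. The Il4 region was at 43.9 and 41.6 CPM per kb in BALB/c iNKT1, 45.9 and 42.6 in SKG iNKT1, 15.1, 9.45 and 12.4 in BALB/c iNKT2, and 15, 8.07 and 6.15 in SKG iNKT2. It fell by 1.80 ± 0.26 in BALB/c (adjusted p = 2.4e-05) and by 2.15 ± 0.27 in SKG (adjusted p = 7.9e-06), and the Zbtb16 region fell by 1.44 ± 0.23 in BALB/c (adjusted p = 5.6e-05). None of 11 iNKT17 genes had a wide region.

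T lineage factors had 29 regions at 16 of 26 genes, and in BALB/c iNKT2 16 fell, 2 rose and 11 did not pass. The falls included regions of Id2 (-1.80 ± 0.19), an inhibitor of E proteins, Runx3 (-1.62 ± 0.15), a factor of cytotoxic cells, and Runx1 (-1.56 ± 0.21), and the rises were at Myb (0.94 ± 0.19) and Foxo1 (0.49 ± 0.14), which also had a region that fell (-0.51 ± 0.12). T cell receptor signalling had 20 regions at 11 of 29 genes, with 12 falls, 3 rises and 5 that did not pass. A region near Cd2, an adhesion receptor gene, fell by 1.97 ± 0.14, and all 3 regions of Ptpn22, a phosphatase that restrains receptor signalling, fell (-1.67, -1.44 and -0.97). The rises were near Cd247, the zeta chain gene (1.16 ± 0.18), Prkcq (1.03) and Ptprc (1.00). Neither list's median in BALB/c turned under another scaling (-0.57 and -0.72 with TMM, -0.18 and -0.37 with quantile normalization), while in SKG that of T lineage factors moved from -0.25 to 0.01.

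Signal-induced factors had 15 regions at 10 of 26 genes, 8 lower, 1 higher and 6 not past the test in BALB/c iNKT2, with a median of -0.46. The Irf4 region rose (1.07 ± 0.15) and those of Nfatc2 (-1.86), Bach2 (-1.16 ± 0.13) and Myc (-1.02 ± 0.12) fell. Coreceptors for costimulation and inhibition had 18 regions at 10 of 20 genes, 11 lower, 3 higher and 4 not past the test, with a median of -0.67. The region of Tnfrsf9, the 4-1BB gene, fell most (-1.78 ± 0.18) and that of Btla, an inhibitory receptor gene, rose (1.07 ± 0.18). With quantile normalization, 4 signal-induced regions and 6 coreceptor regions were lower, 2 and 4 higher, and the medians were -0.03 and -0.30.

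Cytokine receptors and Jak-Stat genes had 8 regions at 7 of 26 genes, of which 5 fell, 1 rose and 2 did not pass in BALB/c. Both regions of Ifngr1, the interferon gamma receptor gene, fell 4-fold or more, the first from 56.9 and 59.1 CPM per kb in BALB/c iNKT1 to 10.7, 8.58 and 9.59 in BALB/c iNKT2 (-2.59 ± 0.13, adjusted p = 4e-09). The second, 1096 bp from the gene's start, fell by 3.74 ± 0.23 (adjusted p = 1e-08). The region of Stat4, the factor downstream of interleukin 12, fell by 2.68 ± 0.19 (adjusted p = 3.6e-08) and overlapped a coding transcript start. All 3 regions of the survival list fell, Bcl2 and Bcl2l11 by 1.81 each and Mcl1 by 0.42, the last turning to 0.04 under quantile normalization. Among 16 migration and retention genes 3 had a region, and S1pr1, the egress receptor gene, rose (1.49 ± 0.15) while Klf2, its activator (-1.21 ± 0.12), and Cxcr4 (-0.53 ± 0.12) fell. MAPK feedback and Notch genes had 11 regions at 7 of 19 genes, 5 lower, 3 higher and 3 not past the test, led by a Dusp4 region that rose (2.10 ± 0.28) and an Rbpj region that fell (-2.55 ± 0.20). The median of this list was -0.19 with TMM but turned to 0.09 with library totals, 0.10 with the GC trend removed and 0.25 with quantile normalization.

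The genotype comparison asked which regions differ between SKG and BALB/c cells of the same subset. In iNKT1 cells, 2 wide regions were called higher in SKG (0.156%) and 3 lower (0.233%), against 0.281% and 0.732% of all regions. The adjusted p alone gave 10 higher (0.778%) and 30 lower (2.33%), against 0.662% and 1.42%, and leaving out any 1 of the 4 iNKT1 libraries left 2 to 4 higher and 7 to 10 lower. Omitting replicate 1 of SKG iNKT2 gave 15 and 52, and omitting replicate 1 of BALB/c iNKT2 gave 12 and 47. The difference was under 2-fold in 97.0% of wide regions and in 84.7% of all regions. No called region was within 1000 bp of another coding transcript start. With library totals and with quantile normalization no region was called higher, and 4 and 1 were called lower.

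The called regions higher in SKG iNKT1 were in introns of Nrp2, a semaphorin and VEGF receptor gene, and Emb, an immunoglobulin superfamily gene whose region is nearest to the start of Gm17509. The Emb region, chr13:117242032-117243044, was at 1.39 in both BALB/c iNKT1 libraries, 5.14 and 6.02 CPM per kb in SKG iNKT1, 29.5, 45.3 and 37.4 in BALB/c iNKT2, and 46.8, 53.6 and 47.5 in SKG iNKT2. It rose by 2.00 ± 0.25 in SKG iNKT1 (adjusted p = 0.00022), at the edge of the 4-fold limit, and both SKG iNKT1 libraries were below every iNKT2 library. The Nrp2 region rose from 2.88 and 3.85 to 13.9 and 12.9 CPM per kb (2.00 ± 0.27, adjusted p = 0.00039). The regions lower in SKG iNKT1 were near Jag1, near Retreg1 and in an intron of Plcl2. The region near Retreg1, an ER-phagy receptor gene, fell from 15.1 and 14.2 CPM per kb to 3.48 and 2.75 (-2.23 ± 0.23, adjusted p = 4.4e-05), and was 27.1, 25.3 and 24.8 in BALB/c iNKT2 and 15.3, 9.92 and 12.9 in SKG iNKT2. The Plcl2 intron region fell from 23.4 and 24.2 to 5.61 and 6.09 CPM per kb (-2.02 ± 0.18, adjusted p = 1.8e-05), close to the 4.39 to 6.13 of the iNKT2 libraries.

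In iNKT2 cells 1 wide region was called higher in SKG (0.0778%) and 7 lower (0.545%), against 0.252% and 4.73% of all regions. The adjusted p alone gave the opposite balance, 155 higher (12.1%) and 67 lower (5.21%), against 4.02% and 10.1% of all regions. With the replicate number as a block, which pairs the iNKT2 libraries of the genotypes, these became 446 and 119, while the counts over all 94823 regions rose from 3812 and 9619 to 10122 and 13772. The balance also moved with single libraries. It was 63 higher and 60 lower when BALB/c iNKT2 replicate 3 was left out, and 64 and 53 when replicate 2 of that group was. Over all regions these 2 fits gave 1380 higher and 7552 lower, and 1363 and 7288, so the counts fell there too. Without SKG iNKT2 replicate 1 the wide regions gave 225 and 78, against 4347 and 9959 over all regions. Omitting replicate 3 of SKG iNKT2 gave 87 and 52, and omitting replicate 1 of BALB/c iNKT1 gave 101 and 64. Over the 10 such fits 63 to 225 were higher and 49 to 78 lower. This balance depended on scaling, with 82 higher and 88 lower with library totals and 56 and 124 with quantile normalization (1665 and 10367, and 4946 and 7785, over all regions), and the median over wide regions moved from 0.20 (0.01 over all regions) to 0.07 (-0.12) and to -0.03 (0.10). The 4-fold calls remained mostly lower, with 1 higher and 8 lower with library totals and 2 and 8 with quantile normalization. The difference was under 2-fold in 96.0% of wide regions, against 82.9% of all regions.

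The largest genotype difference lay in an intergenic region at chr2:137236243-137237317, 119599 bp from the start of Jag1, which encodes a Notch ligand. Its level was 9.78 and 12.9 CPM per kb in BALB/c iNKT1, 2.39 and 1.19 in SKG iNKT1, 18.1, 24.4 and 22.2 in BALB/c iNKT2, and 0.719, 0.983 and 1.94 in SKG iNKT2. All SKG libraries were below all BALB/c libraries, with falls by 4.26 ± 0.30 in iNKT2 (adjusted p = 2.6e-07) and by 2.65 ± 0.36 in iNKT1 (adjusted p = 0.00044), and it was the only region called in both subsets. A second Jag1 region in an intron, 1494 bp from the start, fell by 1.15 ± 0.20 in iNKT2 (adjusted p = 0.00062) and by 1.65 ± 0.26 in iNKT1 (adjusted p = 0.0016). Its levels were 21.4 and 24.3 against 7.05 and 7.55 CPM per kb in iNKT1 and 32.1, 37.5 and 40.0 against 10.3, 19.8 and 19.7 in iNKT2.

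Rbpj, which encodes the DNA-binding partner of activated Notch, had a pair of regions that fell in SKG iNKT2. The region chr5:53393580-53394904, 71248 bp from the start, was at 45.6 and 44.3 CPM per kb in BALB/c iNKT1, 24.6 and 22.3 in SKG iNKT1, 10.1, 6.17 and 6.78 in BALB/c iNKT2, and 1.88, 1.18 and 1.78 in SKG iNKT2. SKG was lower in both subsets, past the test in iNKT2 (-2.24 ± 0.21, adjusted p = 3.3e-06) and not in iNKT1 (-0.94 ± 0.21, adjusted p = 0.018). The region chr5:53420767-53421782 fell by 1.5 ± 0.16 in iNKT2 (adjusted p = 8.1e-06). The other 7 regions of the MAPK and Notch list did not pass in iNKT2, and this list was drawn up with earlier results of these libraries known.

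The single region called higher in SKG iNKT2 was chr15:74930779-74931814, 23237 bp from the start of Ly6e, which encodes a GPI-anchored surface protein. It was at 3.75 and 3.96 CPM per kb in BALB/c iNKT1, 12.2 and 11.6 in SKG iNKT1, 1.48, 1.69 and 1.43 in BALB/c iNKT2, and 12.6, 5.98 and 8.53 in SKG iNKT2. All SKG libraries were above all BALB/c libraries, by 2.56 ± 0.25 in iNKT2 (adjusted p = 4e-06) and by 1.63 ± 0.29 in iNKT1 (adjusted p = 0.0032).

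**Figure D5:**
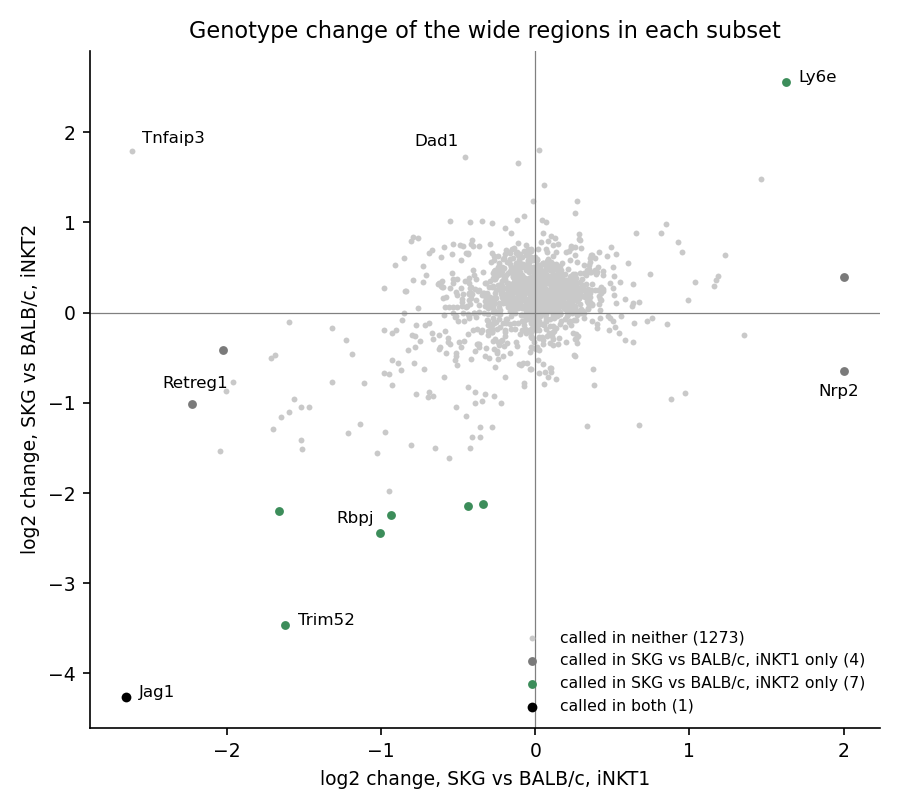
Each point is 1 of 1285 wide regions, with the log2 difference of SKG from BALB/c in iNKT1 on the horizontal axis and in iNKT2 on the vertical axis. Most regions sit near 0 in both, 7 were called in iNKT2 only and 4 in iNKT1 only, and the Jag1 region lies at -2.65 and -4.26.

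Outside Jag1 and Rbpj, 5 regions were called lower in SKG iNKT2, and the largest fall was at chr14:106026683-106028037. It is nearest to the start of Trim52 (78161 bp), with Spry2, an inhibitor of receptor to MAPK signalling, next on the other side (129864 bp). Its level was 91.2 and 110 CPM per kb in BALB/c iNKT1, 33.6 and 32.0 in SKG iNKT1, 41.3, 21.7 and 29.4 in BALB/c iNKT2, and 4.39, 1.53 and 2.09 in SKG iNKT2, a fall by 3.46 ± 0.30 in iNKT2 (adjusted p = 1.5e-06) and by 1.62 ± 0.32 in iNKT1 (adjusted p = 0.0068). A region near Serpina12, an adipokine gene, was lower in SKG iNKT2 at 6.94, 4.13 and 4.84 against 25.2, 21.2 and 25.1 CPM per kb (-2.15 ± 0.17, adjusted p = 5.8e-07).

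The other 3 regions called lower had their highest levels in BALB/c iNKT2. The region near Kctd1 was at 12, 9.62 and 10.2 CPM per kb in BALB/c iNKT2 and 1.74 to 2.09 in SKG iNKT2 (-2.44 ± 0.18, adjusted p = 3.9e-07). Near Kbtbd8, a ubiquitin ligase adaptor gene, the levels were 12.4, 13.9 and 11.4 in BALB/c iNKT2, 2.63 to 3.41 in SKG iNKT2 and 0.551 to 1.15 over the 4 iNKT1 libraries (-2.12 ± 0.21, adjusted p = 4.6e-06). A region over an Enox1 exon, nearest to the start of Dnajc15, was at 12.2, 10.9 and 9.54 in BALB/c iNKT2 and 2.01 to 2.62 in SKG iNKT2 (-2.20 ± 0.25, adjusted p = 1.8e-05).

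Among the listed genes, 12 other regions passed in iNKT2 without a 4-fold difference. Higher in SKG were regions of Il21r (1.24 ± 0.17) and Socs1 (1.00 ± 0.12), a cytokine receptor gene and a feedback inhibitor of Jak signalling. The Socs1 region was at 18.2, 18.5 and 16.3 CPM per kb in BALB/c iNKT2 and 35.9, 31.8 and 38.3 in SKG iNKT2. Also higher were Runx1 (0.84), Satb1 (0.82), Fasl (0.76), Fosl2 (0.74), Bcl2 (0.72), Bhlhe40 (0.70), Cd2 (0.68), Junb (0.61) and Mcl1 (0.44), and lower was Ptprc (-0.57). Of these 12, only Il21r, Socs1, Satb1 and Fasl passed under every scaling tried. The others did not pass under at least 1 other scaling. In iNKT1 cells 4 regions outside Jag1 passed, namely S1pr1 (1.17 ± 0.17), Cxcr4 (-0.71 ± 0.13), Il6st (-0.78 ± 0.16) and Egr1 (-0.84 ± 0.14), the last an early response gene of receptor signalling, at 41.3 and 42.5 CPM per kb in BALB/c and 22.3 and 24.5 in SKG. Il6st and Egr1 did not pass under quantile normalization.

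The iNKT1 and iNKT2 genotype differences had Pearson's r = 0.395 and a Spearman rank correlation of 0.187 over the 1285 regions, against r = 0.280 over all regions, with no library in common. A test of the difference between them, the interaction, called 2 wide regions with a higher value in iNKT2 (0.156%) and 1 with a lower value (0.0778%), against 0.189% and 0.341% of all regions. The adjusted p alone gave 27 (2.10%) and 6 (0.467%), against 0.446% and 0.479%, and among listed genes these were Runx1 (1.63 ± 0.30), Socs1 (1.28 ± 0.18), Cxcr4 (1.12 ± 0.17) and Egr1 (1.08 ± 0.17). Runx1 and Egr1 did not pass with library totals or with quantile normalization. The 3 called regions, at Nrp2, Tnfaip3 and Dad1, are given with their levels in the closing section. With the replicate block the adjusted p alone gave 184 and 39, against 2693 and 2234 over all regions. That block also pairs iNKT1 libraries by number, although same-numbered iNKT1 libraries of the genotypes did not deviate together. Without SKG iNKT1 replicate 1 it gave none in either direction, and the listed genes above were then not past it. Without any 1 of the other iNKT1 libraries it gave 1 to 3 higher and at most 1 lower, and without BALB/c iNKT2 replicate 2 or 3 or SKG iNKT2 replicate 3 it gave 5 to 8 higher and 2 or 3 lower. Leaving out SKG iNKT2 replicate 1 raised it to 52 and 10. The 4-fold calls moved with single libraries too, from 0 without SKG iNKT1 replicate 1 to 7 without SKG iNKT2 replicate 1.

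In all, 79 wide regions were called in at least 1 of the 4 pairwise comparisons, 1206 (93.9%) in none, and 434 (33.8%) passed the adjusted p in none. These joint counts were not made over all regions. In each pairwise comparison and direction, the share called at 4-fold was below that of all regions. Every wide region called in a pairwise comparison had libraries that did not overlap between its groups. This was not counted over all regions. It is not separate evidence for the calls, which rest on the same few libraries.

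The central 300 bases of the wide regions held most motif strings about as often as those of all regions did. That window covers less of a wide region (median 1168 bp) than of all regions (median 343 bp), and strings outside it were not counted. Narrower regions away from gene starts held the Runt string in 6.71%, ETS in 11.1%, TCF in 6.49% and AP-1 in 8.57%. Wide regions were above these narrower regions only for the Egr (2.56% there) and NFkB (0.775% there) strings. The shares were 1.71% against 1.91% for the T-box string AGGTGTGA, 5.06% against 5.74% for the Runt string TGTGGTTT, 8.95% against 9.64% for the ETS string, 5.21% against 5.74% for the TCF string ATCAAAG and 6.46% against 6.54% for the NFAT string TGGAAAA. The Egr string GCGTGGG was in 5.76% of wide regions against 3.68% of all, with 12.3% in the 326 regions near other coding transcript starts and 3.55% in the other 959. Shares were 6.07% against 7.60% for the AP-1 string TGACTCA, 3.66% against 4.19% for GATA, 35.2% against 36% for an E-box, 3.58% against 3.76% for the KLF string GGGTGTGG, 1.17% against 0.740% for the NFkB strings GGGAATTTC and GGGACTTTC, and 0.856% against 1.22% for the CTCF string CCAGGGGGC. Among wide regions past the adjusted p in BALB/c subsets, the TCF string was in 13 of 139 higher in iNKT2 (9.35%) and in 31 of 602 lower (5.15%), and over all regions in 10.1% and 3.68%. The T-box string was in 2 of 139 (1.44%) and in 16 of 602 (2.66%), and over all regions in 1.12% and 4.05%.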

How the data were processed

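ATAC-seq was performed on sorted thymic iNKT1 and iNKT2 cells of BALB/c and SKG mice. Libraries were made with the Nextera transposase and PCR, and the submitters' processing notes name bcl2fastq, Trim Galore, Bowtie 1.0, Picard, MACS2 and limma with mm10. The authors deposited 1 table of raw insertion counts per region and library, not normalised, over regions called across the series, and these counts were used as deposited. Gene starts came from GENCODE records, and 10.5% of regions held a protein-coding gene start, against 0.459% after a shift of the starts by 1 Mb, which checks the build.

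All 94823 regions and 10 libraries were fitted in edgeR 4.0.16 (R 4.3.3) with 1 mean per group, TMM factors and the quasi-likelihood F test, and p-values were adjusted over all regions by the Benjamini-Hochberg method. A region was called at an adjusted p under 0.01 and 4-fold. The script was tested on simulated counts. Levels are TMM-scaled CPM per kb. Alternatives were DESeq2 1.42.0, limma 3.58.1 voom with TMM or quantile normalization, library totals, removal of regions under the lower quartile (36.2 insertions on average), a GC trend removed in 20 bins, other thresholds and definitions, leaving out each library and a replicate block. Python 3.11.15 and samtools 1.23.1 were used for annotation and sequence.

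Same-numbered BALB/c and SKG iNKT2 libraries deviated together (correlations of deviations from the group means of 0.492, 0.165 and 0.202), each over 0.1, so their numbers were read as pairs. The pairing rests mainly on replicate 1, since BALB/c replicate 3 with SKG replicate 2 (0.278) and 2 with 3 (0.180) deviated together as much. Same-numbered iNKT1 libraries of the genotypes did not (-0.00599), and those of BALB/c iNKT1 and iNKT2 were at 0.145 and 0.107. The replicate block paired the iNKT1 libraries by number all the same, so its iNKT1 genotype and interaction counts rest on a pairing not seen here.

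Regions were named by rule: the 5 widest, the 5 of highest level, up to 4 called regions of largest difference per comparison and direction, up to 3 called per direction in the interaction, the regions of the 5 genes with most members, 1 region for each listed gene (of smallest adjusted p in BALB/c subsets) and the 3 of least change. Other regions given by value, namely the remaining called ones between genotypes and further regions of listed genes, were chosen after their values were seen. The members and gene lists were chosen with earlier results of these data known. Insertions are PCR reads without molecular identifiers.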

Additional observations from a re-analysis of the deposited data

Results flagged for a closer look

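In 3 wide regions the difference between SKG and BALB/c itself differed between iNKT2 and iNKT1 cells, by the interaction term of the edgeR quasi-likelihood fit at an adjusted p under 0.01 and 4-fold. The intronic Nrp2 region, chr1:62706010-62707086, was at 2.88 and 3.85 CPM per kb in BALB/c iNKT1, 13.9 and 12.9 in SKG iNKT1, 9.41, 14.5 and 16.7 in BALB/c iNKT2, and 7.84, 9.81 and 8.26 in SKG iNKT2. It was higher in SKG iNKT1 (2.00 ± 0.27, adjusted p = 0.00039) and -0.65 ± 0.20 in iNKT2 (adjusted p = 0.027), a difference of -2.65 ± 0.33 (adjusted p = 0.00088).

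The region over a coding exon of Tnfaip3, which encodes the NF-kB inhibitor A20, at chr10:19002866-19004077, was at 3.55 and 11.7 CPM per kb in BALB/c iNKT1, 1.59 and 0.847 in SKG iNKT1, 2.07, 6.57 and 5.48 in BALB/c iNKT2, and 19.1, 12.7 and 17.2 in SKG iNKT2. The BALB/c libraries were spread widely in both subsets. The genotype difference was -2.62 ± 0.59 in iNKT1 (adjusted p = 0.016) and 1.79 ± 0.39 in iNKT2 (adjusted p = 0.0036), which differed by 4.41 ± 0.71 (adjusted p = 0.0037). This interaction did not pass the adjusted p under quantile normalization, and the iNKT2 genotype difference did not pass it with DESeq2.

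The third region, chr14:54232816-54234171, lay 19933 bp from the start of Dad1, an oligosaccharyltransferase subunit gene, and 8609 bp past the end of Trac, the constant segment of the T cell receptor alpha chain. It was at 45.7 and 46.9 CPM per kb in BALB/c iNKT1, 30.7 and 36.7 in SKG iNKT1, 31.0, 25.4 and 22.1 in BALB/c iNKT2, and 67.9, 109 and 83.9 in SKG iNKT2. Every SKG iNKT2 library was above every other library, and the genotype difference of 1.73 ± 0.17 in iNKT2 (adjusted p = 3.9e-06) against -0.46 ± 0.20 in iNKT1 (adjusted p = 0.25) gave an interaction of 2.19 ± 0.26 (adjusted p = 0.00072).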

How the results depend on the processing

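Among 32 named results under 14 or fewer alternatives each, 421 of 448 values kept their direction and side of the thresholds, 27 kept their direction but passed them no longer, and 0 reversed. The 27 were mostly interaction and iNKT1 genotype calls. The turns under other scalings given above are not counted as reversals in this tally. They concern the Mcl1 region, medians over regions and the balance of higher and lower counts. Counts of wide regions called were 308 (BALB/c subsets), 261 (SKG subsets), 34 (iNKT1 genotypes), 51 (iNKT2 genotypes) and 55 (interaction) at an adjusted p under 0.05 and 2-fold. They were 741, 535, 40, 222 and 33 with no fold limit, 135, 124, 3, 15 and 0 in a test against a 2-fold difference, and 3, 3, 0, 0 and 0 among the 211 regions of 1500 bp or more. Over all regions, an adjusted p under 0.05 and 2-fold gave 25339 higher and 15164 lower (BALB/c subsets) and 20480 and 14241 (SKG subsets). It gave 1271 and 2757 (iNKT1 genotypes), 2169 and 11570 (iNKT2 genotypes) and 1506 and 1988 (interaction). In the same order, the test against a 2-fold difference gave 14049 and 7497, 7788 and 7337, 90 and 196, 186 and 3008, and 8 and 24. Among wide regions, quantile normalization left 1 call between iNKT1 genotypes and 1 interaction call. The replicate block gave 8 between iNKT1 genotypes (39 higher and 107 lower by the adjusted p alone). The block changed no other count of 4-fold calls by over 1.5 times. Leaving out 1 library gave 55 to 71, 59 to 70, 3 to 7, 7 to 12 and 0 to 7 calls in the same order. The lowest iNKT1 genotype count, 3, came without SKG iNKT1 replicate 1, the highest iNKT2 genotype count, 12, without SKG iNKT2 replicate 1. The interaction gave 0 calls without SKG iNKT1 replicate 1. It gave 1 call when BALB/c iNKT2 replicate 3 was left out, and its highest count, 7, came when SKG iNKT2 replicate 1 was left out. Ranges of calls over all regions were not made for the fits without 1 library. The share of insertions in wide regions was 4.61% (BALB/c iNKT1), 4.43% (SKG iNKT1), 4.15% (BALB/c iNKT2) and 4.36% (SKG iNKT2) with every coding transcript start left out, 6.31%, 6.16%, 5.73% and 6.05% with a 2 kb distance, and 1.78%, 1.76%, 1.61% and 1.77% at 1500 bp. Without 1 library it was 6.77% to 6.79%, 6.57% to 6.68%, 6.14% to 6.19% and 6.47% to 6.57%. The cause of these changes was not tested, beyond the smaller number of regions or libraries. With 2 iNKT1 libraries per genotype, a lone library left in a group was taken to vary like the others. Depth limits the regions nearly closed in iNKT1 most.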
